A study of Mus musculus with 4 samples.

Results

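Retnla, Chil3, Mrc1, Clec10a and Mgl2 are genes commonly used to recognise alternatively activated mouse macrophages, and their transcripts were followed here in the epididymal fat pad, a visceral depot. The 5 genes were taken by symbol from 24421 gene symbols, and each of the 5 passed the expression filter that 14106 genes passed. They were chosen on values of these same libraries, because Retnla was much higher in one group while macrophage genes were lower. Their difference between the groups is therefore given as a description, with no test.

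The tissue came from male C57BL/6J mice of wild-type genotype that were obese on high-fat diet (HFD). The weight cycling group (WC1) was given HFD from 8 weeks of age for 8 weeks, then standard diet for 2 weeks, then HFD again for 6 weeks. The control group (Ctrl) began HFD at 10 weeks of age and stayed on it for 14 weeks, so that total time on HFD was 14 weeks and final age 24 weeks in both groups. Each group has 2 libraries, and the labels do not say whether each is a separate animal or a pool, so the tests measure only the spread between these libraries. WC1 differs from Ctrl in the age at the first HFD as well as in the break on standard diet, and these cannot be told apart here.

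Alternative activation is the state that macrophages take on when IL-4 or IL-13 binds receptors containing the IL-4 receptor alpha chain, which activate the transcription factor STAT6. STAT6 and its partners, among them C/EBPβ, then switch on secreted proteins (Retnla, Chil3) and lectins that bind sugars on the cell surface (Mrc1, Clec10a, Mgl2). In lean fat, eosinophils and group 2 innate lymphoid cells are known sources of these cytokines, and in obesity lipid-laden macrophages gather around dying adipocytes.

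Within the set the genes went in different directions. The mean of Retnla was 15.7 times as high in WC1 as in Ctrl, that of Mgl2 2.23 times and that of Chil3 1.75 times. Mrc1 and Clec10a were lower, with Ctrl means 1.85 and 1.32 times the WC1 means. None of the 5 genes overlapped between groups, 3 having both WC1 values above the Ctrl values and 2 below. Among all tested genes 32.7% had both WC1 libraries above both Ctrl libraries and 36.6% had both below, so that separation alone is common in these data, and the rule that chose the genes used it. Values are written as CPM, reads per gene scaled by library, and differences as WC1 minus Ctrl on the log2(CPM + 1) scale, which understates the change of genes with few reads.

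Retnla lies at chr16:48842551-48844461 on the plus strand (GRCm38), between its relatives Retnlb, 23.7 kb upstream, and Retnlg, 28.2 kb downstream. Chil3 lies at chr3:106147554-106167564 on the minus strand, 33.9 kb from Chil4. Mrc1 spans chr2:14229392-14332057 and hosts the microRNA gene Mir511 on the same strand. Mgl2, at chr11:70130329-70137550, and Clec10a, at chr11:70156197-70170834, are neighbours on the plus strand with 18.6 kb between them.

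The DNA before the start sites of Retnla and Chil3 is shown with that of the closest relative of each, because the paired genes have similar upstream sequence and unlike transcript levels in this tissue. The sequences are RefSeq promoter windows on GRCm38.p6, in the direction of transcription, and stop before the first annotated transcribed base. Capitals mark matches to the letters TTCNNNNGAA or TTCNNNGAA, the palindromic spacings bound by STAT proteins, of which the longer is the form STAT6 prefers. The stretches are chr16:48842359-48842550 for Retnla, chr16:48872358-48872607 for Retnlg, chr3:106167565-106167814 for Chil3 and chr3:106219508-106219729 for Chil4.
Retnla: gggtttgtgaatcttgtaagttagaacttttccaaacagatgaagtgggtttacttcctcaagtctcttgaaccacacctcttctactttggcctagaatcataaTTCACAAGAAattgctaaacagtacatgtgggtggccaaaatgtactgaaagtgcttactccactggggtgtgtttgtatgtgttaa
Retnlg: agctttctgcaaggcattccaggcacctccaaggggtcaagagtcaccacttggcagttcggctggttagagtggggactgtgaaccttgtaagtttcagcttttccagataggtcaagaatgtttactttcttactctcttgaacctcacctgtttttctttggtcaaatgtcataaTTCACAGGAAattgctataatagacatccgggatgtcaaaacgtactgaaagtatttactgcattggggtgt
Chil3: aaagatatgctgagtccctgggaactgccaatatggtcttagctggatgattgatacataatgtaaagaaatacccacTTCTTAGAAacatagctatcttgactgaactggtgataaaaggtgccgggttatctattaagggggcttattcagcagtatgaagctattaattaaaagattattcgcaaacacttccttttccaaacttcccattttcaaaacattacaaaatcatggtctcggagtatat
Chil4: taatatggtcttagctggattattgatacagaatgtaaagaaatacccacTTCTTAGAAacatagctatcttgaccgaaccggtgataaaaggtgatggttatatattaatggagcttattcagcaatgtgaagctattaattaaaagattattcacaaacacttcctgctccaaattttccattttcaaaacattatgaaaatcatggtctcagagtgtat

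Windows from 250 bases before to 50 bases after the RefSeq start were searched on both strands, and positions are counted back from the first transcribed base in either annotation, with -1 for the last base of each stretch shown. Retnla held TTCACAAGAA from position -87 and TTGCTAAA, a match to the C/EBP-type letters TTGCNNAA, from -76. Retnlg held TTCACAGGAA from -72, and Chil3 and Chil4 both held TTCTTAGAA from -172. On the other strand, TTGCNNAA also matched in Retnlg from -246 and in Chil4 from -103. The windows of Mgl2 and Mrc1 held neither STAT-type spacing, and Clec10a was not searched. Over 32851 promoter windows, 6.95% held TTCNNNNGAA, 8.30% held TTCNNNGAA and 10.8% held TTGCNNAA. Aligned over the whole windows, Retnla and Retnlg were identical at 79.1% of 225 bases, and Chil3 and Chil4 at 92.6% of 271.

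Retnla encodes resistin-like molecule alpha, also called FIZZ1, a small secreted protein that IL-4 strongly induces in mouse macrophages. It was measured at 8.85 and 11.6 CPM in Ctrl 1 and Ctrl 2 and at 107 and 214 CPM in WC1 1 and WC1 2. Both WC1 libraries were thus far above both Ctrl libraries, and the WC1 libraries differed from each other 1.99-fold. The means were 10.2 ± 1.98 and 160.4 ± 75.3 CPM (SD, n = 2), a ratio of 15.7. The smallest ratio between any WC1 and any Ctrl library was 9.20 and the largest was 24.1. The log2 difference was 3.77 ± 0.34 (SE), rank 6 from the top of 14106 genes. These values rest on 605 and 1013 reads in the Ctrl libraries and on 6537 and 13447 in the WC1 libraries, so counting error was small beside the spread between libraries.

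Corrected for transcript length, Retnla stood at 28.2 and 37.6 TPM in Ctrl and at 373 and 769 TPM in WC1. Its place among the 14106 genes moved from the 65.3 and 71.2 percentiles to the 97.1 and 98.6 percentiles. In Ctrl it was a transcript of middling abundance, and in WC1 it was among the abundant ones.

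Chil3 encodes Ym1, a secreted chitinase-like protein without chitinase activity. Its values were 2.56 and 2.59 CPM in Ctrl and 3.03 and 5.97 CPM in WC1. Only WC1 2 stood clearly apart, since the exact Poisson interval of WC1 1 (95%, 2.61 to 3.50 CPM, counting error only) met those of Ctrl 1 (2.19 to 2.97 CPM) and Ctrl 2 (2.26 to 2.95 CPM). The log2 difference of 0.57 ± 0.27 (SE) was 0.17 without WC1 2 and 0.96 without WC1 1. Chil3 was the lowest of the 5 genes, at 3.16 and 3.23 TPM in Ctrl and 4.09 and 8.33 TPM in WC1.

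Mrc1 encodes the mannose receptor CD206, an endocytic lectin of tissue macrophages. It was measured at 523 and 509 CPM in Ctrl against 312 and 247 CPM in WC1. Every WC1 value was below every Ctrl value, with means of 516 ± 10.0 and 279.7 ± 46.0 CPM (SD, n = 2). The log2 difference was -0.89 ± 0.13 (SE), rank 313 from the bottom of 14106 genes.

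Clec10a encodes MGL1, a C-type lectin for galactose and N-acetylgalactosamine carried by macrophages and dendritic cells. It was measured at 179 and 188 CPM in Ctrl against 149 and 129 CPM in WC1. The groups did not overlap, and the Ctrl mean was 1.32 times the WC1 mean. The log2 difference was -0.40 ± 0.09 (SE), and -0.27 on TPM values, a scale on which the median of all genes lay 0.12 higher.

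Mgl2 encodes MGL2, or CD301b, the paralogue of MGL1 with a narrower range of cells. It was measured at 17.1 and 21.1 CPM in Ctrl against 34.2 and 51.2 CPM in WC1. Both WC1 libraries were above both Ctrl libraries, with a ratio of means of 2.23. The log2 difference was 1.10 ± 0.21 (SE), rank 246 from the top. The adjacent lectin genes thus differed between the groups in opposite directions, and Mgl2 made up 8.47% and 9.78% of their summed TPM in Ctrl but 18.2% and 27.7% in WC1.

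**Figure D1:**
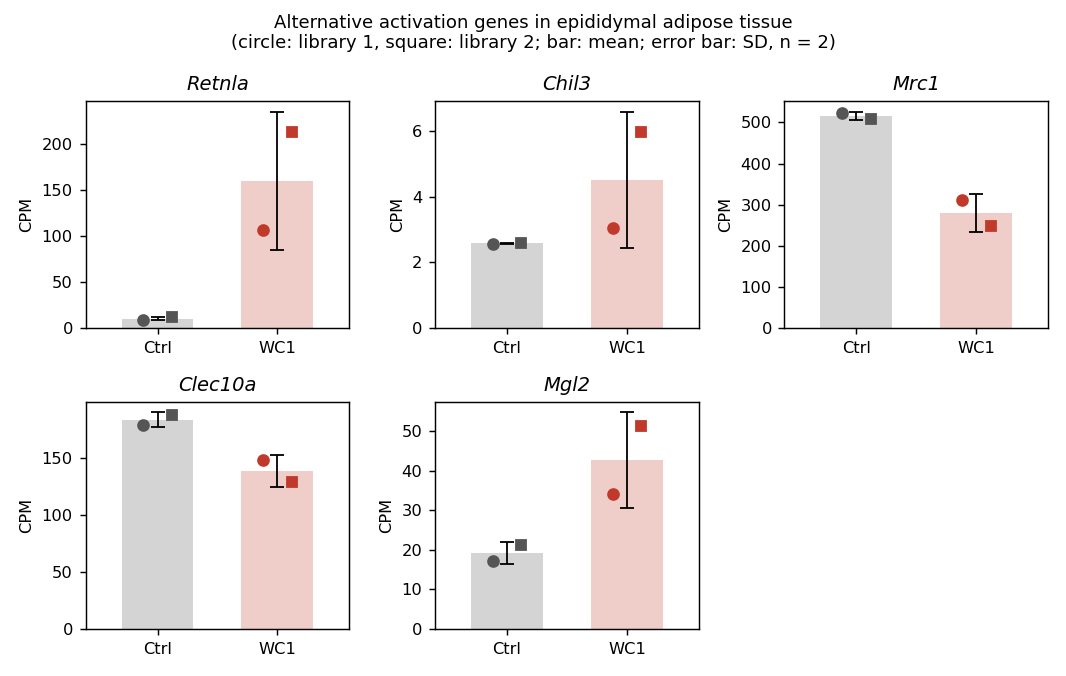
CPM of each of the 5 genes, with circles and squares for libraries 1 and 2 of Ctrl (grey) and WC1 (red), bars for the group mean and error bars for the SD (n = 2); each panel has its own axis from 0. Retnla, Mgl2 and Chil3 were higher in WC1, with WC1 1 of Chil3 (3.03 CPM) close to Ctrl (2.59 CPM), and Mrc1 and Clec10a were lower.

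Near-identical relatives could have traded reads. The longest protein-coding transcripts of Chil3 and Chil4 were identical at 94.4% of aligned bases, and 18.5% of the 50-base stretches of Chil3 also occurred in Chil4. Chil4 itself had 2 and 0 reads in Ctrl but 20 and 33 in WC1, which is few beside the 175 to 376 reads of Chil3. For Mgl2 and Clec10a the identity was 86.4% and 15.3% of the 50-base stretches of Mgl2 were shared, so reads assigned between them are uncertain to that extent. Retnla shared no 50-base stretch with Retnlg, at 84.5% identity, or with Retn, at 61.0%.

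The makeup of the set changed with Retnla. The summed level of the 5 genes was 469 and 494 TPM in Ctrl and 752 and 1133 TPM in WC1. Retnla supplied 6.02% and 7.60% of that sum in Ctrl and 49.6% and 67.8% in WC1. In Ctrl the order by TPM was Clec10a, Mrc1, Retnla, Mgl2 and Chil3. In WC1 Retnla came first and the other 4 genes kept their order. Within each group the libraries of neighbouring genes in that order did not overlap.

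**Figure D2:**
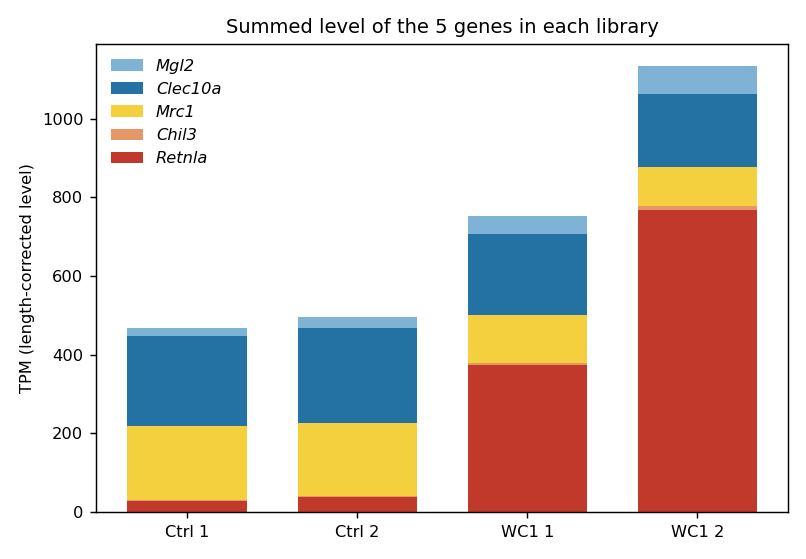
Length-corrected level (TPM) of the 5 genes stacked for each library. The height grew from 469 and 494 TPM in Ctrl to 752 and 1133 TPM in WC1, and the Retnla segment at the base accounts for 49.6% and 67.8% of the WC1 bars.

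Macrophage markers were set beside the members. The members were chosen against lower macrophage genes in these same libraries, so the markers are given as a description too, with no test. Of the 20 markers 18 had both WC1 libraries below both Ctrl libraries and 0 had both above, where 36.6% and 32.7% of all tested genes did. The median log2 difference of the list was -0.68, against -0.02 for all tested genes, and -0.42 without WC1 2. Adgre1, which encodes F4/80, was measured at 675 and 618 CPM in Ctrl against 522 and 353 CPM in WC1. The efferocytosis receptor gene Mertk was measured at 52.1 and 48.3 CPM in Ctrl against 35.0 and 30.6 CPM in WC1, and the lysozyme gene Lyz2 at 6190.2 and 5352 CPM against 2875 and 2048 CPM. In bulk tissue, fewer cells of a type and less RNA per cell cannot be told apart.

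Summed over the list, macrophage markers came to 22082 and 20369 CPM in Ctrl and to 14379 and 9791 CPM in WC1. Divided by that sum, Mrc1 stood at 23.7 and 25.0 CPM per 1000 CPM of macrophage markers in Ctrl and at 21.7 and 25.2 in WC1, so that its groups overlapped. The sum gives most weight to abundant markers such as Lyz2. Set against the median log2 difference of the list instead, Mrc1 lay at -0.21 and Clec10a at 0.27. The WC1 mean of the sum was 0.569 times the Ctrl mean, so a gene of equal CPM in both groups is higher on this scale. Clec10a, lower in WC1 as it stands, was higher on this scale, at 8.11 and 9.25 in Ctrl and 10.3 and 13.2 in WC1. Its CPM fell less than the sum did. Retnla stood at 0.401 and 0.572 in Ctrl and at 7.45 and 21.8 in WC1, a ratio of means of 30.1 that was 15.3 without WC1 2. Mgl2 stood at 0.775 and 1.04 in Ctrl and at 2.38 and 5.22 in WC1, a ratio of 4.20, or 2.62 without WC1 2. Chil3 stood at 0.116 and 0.127 in Ctrl and at 0.211 and 0.610 in WC1, a ratio of 3.38, or 1.74 without WC1 2. None of these 3 genes overlapped between the groups, and WC1 2 was the higher WC1 library for each. The sum was 0.677 of its Ctrl mean in WC1 1 and 0.461 in WC1 2, which lifts every gene in WC1, and in WC1 2 the most. The share of all genes that lie apart on this scale was not counted. The scale takes each gene's transcripts to come from cells that carry the markers, which was not tested.

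**Figure D3:**
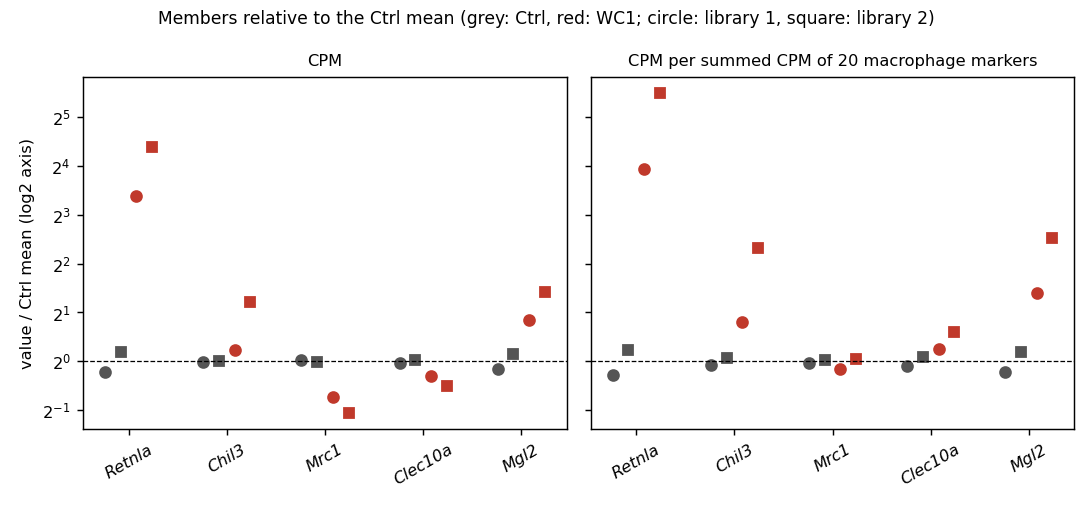
Each library's value divided by the Ctrl mean on a log2 axis, as CPM (left) and as CPM per summed CPM of 20 macrophage markers (right), with Ctrl in grey, WC1 in red, circles for library 1 and squares for library 2. On the right Mrc1 of WC1 overlaps Ctrl, Clec10a lies above Ctrl, and Retnla reaches a ratio of means of 30.1. The mean marker sum of WC1 was 0.569 times that of Ctrl, so a gene of equal CPM also lies above Ctrl on the right.

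The genes most like each member over the 4 libraries were found by the Euclidean distance between centred log2(CPM + 1) values among 12646 genes with a mean of at least 1 CPM. For Mrc1 they were Ms4a6c, C1qa, a complement component of macrophages, and Arhgdib, at distances of 0.04 to 0.05. For Clec10a they were Tgfbr2, Tnf and Adgrd1, at 0.02. For Mgl2 they were Paqr9, Gpc4 and Tmem45b, at 0.05 to 0.07. Chil3 lay nearest to Dach1, Egr1, an immediate early transcription factor, and Ifi44.

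Retnla had few genes near it. The nearest was Ctnnbip1, an inhibitor of beta-catenin, at a distance of 0.53, measured at 1.94 and 2.45 CPM in Ctrl against 40.6 and 48.6 CPM in WC1. Ablim1, which encodes an actin-binding LIM protein, followed at 0.71, with 13.2 and 12.9 CPM in Ctrl and 212 and 228 CPM in WC1. Lppr4, Urgcp and Peg3 came next at 1.75 to 1.90, with log2 differences of 2.02 to 2.11 in place of the 3.77 of Retnla. No macrophage gene was among the 5. With 4 libraries in 2 groups, the distance mostly reads the size of the group difference.

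The resistin family was followed beside Retnla. Retn, which encodes resistin and in mice is made by adipocytes, was measured at 45.9 and 51.6 CPM in Ctrl against 84.2 and 199 CPM in WC1. Its groups did not overlap, but the log2 difference of 1.39 ± 0.40 (SE) did not pass limma (adjusted p = 0.071). It was called higher under 4 of 14 alternatives, by DESeq2, with the replicate block, without WC1 1 and without WC1 2. Retnlb, a gut gene, was at 0 reads in every library. Retnlg, known from bone marrow and neutrophils, had 14 and 7 reads in Ctrl and 0 in both WC1 libraries, where 3 reads correspond to 0.0492 and 0.0477 CPM, and it was not tested. In TPM Retnla was 0.191 and 0.226 times Retn in Ctrl and 1.26 and 1.06 times Retn in WC1.

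Of the other chitinase-like genes, Chil1, which encodes BRP-39, fell from 1.14 and 0.873 CPM in Ctrl to 0.246 and 0.381 CPM in WC1 (log2 difference -0.61 ± 0.15, limma adjusted p = 0.049). This call was lost under 6 of 13 alternatives, where the adjusted p reached 0.29. Chid1 was at 53.6 to 55.0 CPM in Ctrl and 49.9 to 53.8 CPM in WC1, with an adjusted p of 0.55 and a sign that turned under other scalings. Chit1 and Chia1, the true chitinases, had at most 0.069 CPM in any library, and Chil6 was at 0. Of the mannose receptor relatives, Mrc2, a collagen receptor of stromal cells, was measured at 210 and 218 CPM in Ctrl against 217 and 242 CPM in WC1 (log2 difference 0.10 ± 0.09, limma adjusted p = 0.43). Mrc1 was 2.72 and 2.55 times Mrc2 in TPM in Ctrl and 1.57 and 1.11 times Mrc2 in WC1. Pla2r1 and Ly75 were not called either.

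Of the cytokines upstream of alternative activation, Il4 had 7 reads in each Ctrl library (0.102 and 0.0804 CPM) and 0 in each WC1 library, whose exact Poisson intervals (95%) reach up to 0.0605 and 0.0586 CPM. Il13 had 13 and 21 reads in Ctrl and 20 and 30 in WC1, or 0.190 and 0.241 CPM against 0.328 and 0.477 CPM. Neither gene reached the filter, and at these counts the intervals of each Ctrl and each WC1 library meet. Il25 was at 0 in every library.

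Of the 9 ligands 4 were tested, and limma called 0 higher and 2 lower (adjusted p under the threshold of 0.05), as did edgeR and DESeq2. Of all tested genes, limma called 10.2% higher and 7.71% lower, and the counts of each list are to be read against these shares. At an unadjusted p under 0.05 there were 0 higher and 3 lower. Il33, the alarmin that activates group 2 innate lymphoid cells, was measured at 27.4 and 25.2 CPM in Ctrl against 11.1 and 11.0 CPM in WC1. It fell by 1.18 ± 0.09 on the log2 scale (adjusted p = 0.0088). Il10, an anti-inflammatory cytokine, fell by 0.74 ± 0.13 from 2.62 and 2.93 CPM to 1.16 and 1.35 CPM (adjusted p = 0.027). Csf1, the macrophage growth factor, was measured at 81.6 and 76.6 CPM in Ctrl against 68.3 and 59.7 CPM in WC1 and was not called (-0.30 ± 0.09, adjusted p = 0.079), though it was called lower without WC1 1 and with the replicate block. Tslp, an epithelial alarmin, stood at 1.70 and 1.93 CPM in Ctrl against 1.93 and 2.19 CPM in WC1 (0.12 ± 0.13, adjusted p = 0.52). The calls of Il33 and Il10 were lost without Ctrl 1 or without Ctrl 2, where 0 ligands were called and the adjusted p of Il33 reached 0.11 and that of Il10 reached 0.18.

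Among 23 genes of type 2 receptors and signalling, all tested, 4 were called higher and 5 lower, against 10.2% and 7.71% of all tested genes, with a median log2 difference of -0.01. Il4ra, the chain shared by the IL-4 and IL-13 receptors, was measured at 107 and 119 CPM in Ctrl against 71.6 and 66.4 CPM in WC1, and fell by 0.71 ± 0.08 (limma adjusted p = 0.016). Il1rl1, the receptor of IL-33, was measured at 30.5 and 33.7 CPM in Ctrl against 18.6 and 15.7 CPM in WC1, and fell by 0.87 ± 0.11 (adjusted p = 0.018). Il2rg and the phosphatase gene Ptpn6 were also called lower. The gene of the transcription factor C/EBPβ, Cebpb, fell by 0.78 ± 0.08 (adjusted p = 0.014).

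Il13ra1 was measured at a mean of 28.0 CPM in Ctrl and of 21.5 CPM in WC1 and was not called (limma adjusted p = 0.061), though it was called lower by DESeq2, with the replicate block and without WC1 1. Stat6 itself was measured at 220.1 and 223 CPM in Ctrl against 226 and 213 CPM in WC1, with a log2 difference of -0.01 ± 0.07 whose sign turned under 6 of 14 alternatives (adjusted p = 0.91). The 4 genes called higher were Irs2, an adaptor downstream of the IL-4 receptor and of insulin, Irf4, Pparg, and Il13ra2, the decoy receptor of IL-13. Irs2 was measured at 14.7 and 16.7 CPM in Ctrl against 26.2 and 25.2 CPM in WC1, and rose by 0.68 ± 0.10 (adjusted p = 0.020). Adipocytes also carry Irs2 and Pparg. Il2rg, Ptpn6, Irf4, Pparg and Il13ra2 are named after their values were seen. Without Ctrl 1 or without Ctrl 2, 0 of the 23 genes were called, with 4 and 5 higher and 5 and 5 lower at an unadjusted p under 0.05.

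**Figure D4:**
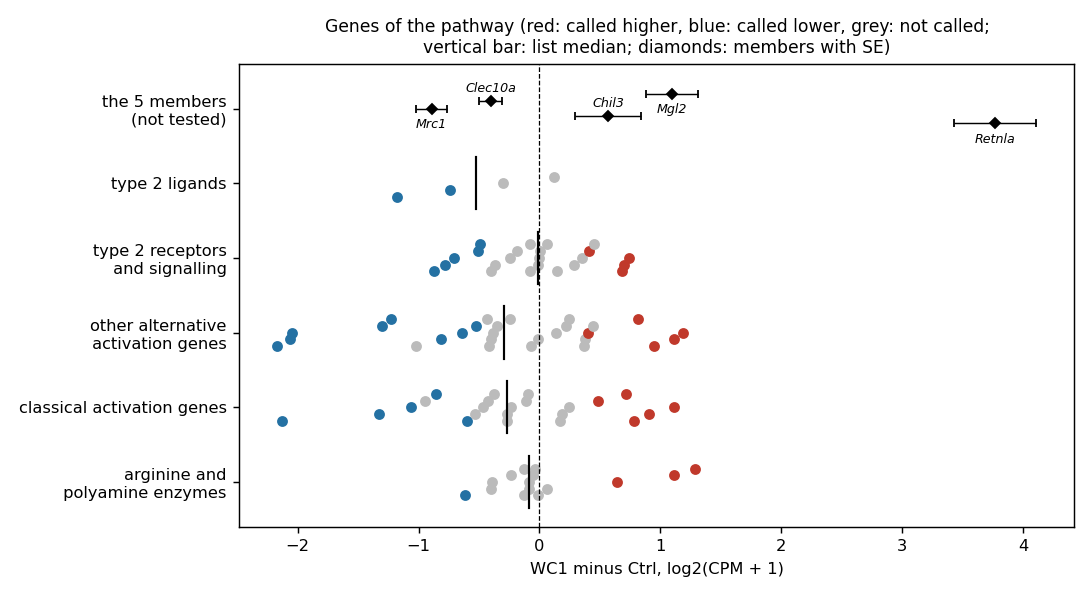
WC1 minus Ctrl on the log2(CPM + 1) scale for the tested genes of 5 lists, coloured by the limma call (red higher, blue lower, grey not called) with the list median as a vertical bar, and for the 5 members with their SE in the top row. Retnla at 3.77 lies to the right of every gene in the 5 lists, and the other members lie within the range of the lists.

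Other genes used as markers of alternative activation differed in both directions. Of 32 such genes 28 were tested, and 5 were called higher and 8 lower, against 10.2% and 7.71% of all tested genes, with a median log2 difference of -0.30. The list shares 8 genes with the macrophage marker lists, among them 4 of those called lower (Ccl8, Folr2, Mmp12 and Stab1) and 0 called higher, and these are no independent evidence of a lower level. Of the 20 tested genes that are on no macrophage marker list, 5 were called higher and 4 lower, with a median of -0.04. Stab1, a scavenger receptor of tissue macrophages, was measured at 730.2 and 686 CPM in Ctrl against 312 and 264 CPM in WC1. Ccl8, an eosinophil-attracting chemokine, was measured at 59.9 and 64.6 CPM in Ctrl against 11.2 and 17.8 CPM in WC1. The collagenase gene Mmp13 fell by 2.05 ± 0.29 (limma adjusted p = 0.020). Cd200r1, Igf1 and Mmp14 were the remaining genes called lower, with the call of Igf1 lost under 7 of 14 alternatives and that of Mmp14 under 4.

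The 5 genes called higher were Ear2, Vegfa, Flt1, Plcb1 and Tgm2, named like Cd200r1, Igf1 and Mmp14 after their values were seen, except for Ear2. Ear2, a ribonuclease gene of eosinophils and some macrophages, was measured at 4.06 and 4.63 CPM in Ctrl against 8.23 and 10.5 CPM in WC1, and rose by 0.95 ± 0.15 (adjusted p = 0.024). Vegfa and its receptor gene Flt1 rose by 1.11 ± 0.19 and 1.18 ± 0.17 (adjusted p = 0.026 and 0.021). Vegfa and Flt1 are also made by adipocytes and endothelial cells. Without Ctrl 1 or without Ctrl 2, 0 of the 28 genes were called, with 4 and 6 higher and 12 and 8 lower at an unadjusted p under 0.05.

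Genes of classical activation, the state driven by interferon-gamma and lipopolysaccharide, also differed in both directions. Of 28 genes 23 were tested, with 5 called higher and 5 called lower, against 10.2% and 7.71% of all tested genes, and a median log2 difference of -0.27. Nos2, the inducible nitric oxide synthase, which makes nitric oxide from arginine, was measured at 4.23 and 4.70 CPM in Ctrl against 9.54 and 12.3 CPM in WC1, and rose by 1.12 ± 0.15 (limma adjusted p = 0.019). Cxcl9, an interferon-gamma target, rose by 0.91 ± 0.10 (adjusted p = 0.016). Gbp2 and Gbp5, interferon-induced GTPase genes named after their values were seen, were called higher as well. Ccl3, a monocyte-attracting chemokine, fell by 2.13 ± 0.23 from 21.9 and 19.3 CPM to 5.15 and 2.97 CPM (adjusted p = 0.014). Ccl4, Ccl5, Ccr7 and Fpr2, likewise named after their values were seen, were the others called lower. Tnf was measured at 6.96 and 7.50 CPM in Ctrl against 5.57 and 4.73 CPM in WC1, with an adjusted p of 0.072.

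Of 20 enzymes and transporters of arginine and polyamine metabolism 15 were tested. Nos2, Nos3 and Ddah1, which act in nitric oxide synthesis or clear its inhibitors, were called higher. Nos3, the endothelial synthase, rose by 1.29 ± 0.23 and Ddah1 by 0.64 ± 0.12 (limma adjusted p = 0.029 and 0.031). Oaz1, the antizyme that slows polyamine synthesis, was the only gene called lower, by 0.62 ± 0.12 (adjusted p = 0.034). The median of the list was -0.09. For the classical and the arginine list alike, 0 genes were called without Ctrl 1 or without Ctrl 2, with 3 to 5 higher and 1 to 7 lower at an unadjusted p under 0.05.

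Markers of the cells that could carry these transcripts moved between the groups too, and their part in the members' values was not tested. The resident and lipid-associated macrophage lists hold genes of the kind that the choice of members used, and they are described without a test. Among all tested genes 36.6% had both WC1 libraries below both Ctrl libraries and 32.7% had both above, and both lists are to be read against these shares. Of 18 resident macrophage markers 14 had both below and 2 had both above, with a median log2 difference of -0.60. Their summed level was 5369 to 5393 CPM in Ctrl and 3216 to 3744 CPM in WC1. Cd5l, a macrophage scavenger protein, was measured at 88.0 and 68.3 CPM in Ctrl against 2.29 and 3.03 CPM in WC1. Of 15 lipid-associated macrophage markers 13 had both WC1 libraries below and 1 had both above, with a median of -0.83 that was -0.52 without WC1 2, and a summed level of 47296 to 51384 CPM in Ctrl and 28866 to 37972 CPM in WC1. Spp1, which encodes osteopontin, was measured at 557 and 428 CPM in Ctrl against 103 and 53.4 CPM in WC1.

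Mgl2 and Clec10a are also carried by dendritic cells, and dendritic cell markers differed in both directions. Of 18 such genes 17 were tested, 7 called higher, 2 lower and 8 not called, with summed levels of 3498 to 3632 CPM in Ctrl and 4758 to 5401 CPM in WC1. The genes called higher were mainly those of antigen presentation on MHC class II, which macrophages and B cells carry as well. Ciita, the master regulator of these genes, rose by 1.13 ± 0.09 (limma adjusted p = 0.010), H2-Eb1 by 0.85 ± 0.09, H2-Ab1 by 0.81 ± 0.10 and H2-Aa by 0.74 ± 0.11 (adjusted p = 0.015, 0.017 and 0.023). Flt3 and Ccr7 were the genes called lower. Flt3, a growth factor receptor of dendritic cells and their precursors, fell by 0.59 ± 0.13 from 5.001 and 6.06 CPM to 3.20 and 3.46 CPM (adjusted p = 0.043). Zbtb46, a transcription factor of conventional dendritic cells, rose by 0.61 ± 0.13 (adjusted p = 0.039). The call of Flt3 was lost on TPM values, after rescaling and by edgeR, and that of Zbtb46 without WC1 2 and after quantile normalization. Without the filter, 4 were called higher and 0 lower. Without Ctrl 1 or without Ctrl 2, 0 of the 17 were called, with 6 higher in each and 2 and 1 lower at an unadjusted p under 0.05.

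Retnla and Chil3 are also made by peritoneal macrophages and eosinophils. Of 12 peritoneal macrophage markers 11 were tested, and Icam2, Saa3 and Ccr2 were called higher and 0 lower (summed level 186 to 197 CPM in Ctrl and 249 to 296 CPM in WC1), with 4 and 1 at an unadjusted p under 0.05, 3 and 0 by edgeR and 4 and 1 by DESeq2. Gata6, the factor that defines these cells, was measured at 9.61 and 9.02 CPM in Ctrl against 7.69 and 8.96 CPM in WC1 (adjusted p = 0.40). Prg4 was not called either, with a log2 difference of -0.72 to -0.14 over 14 alternatives. Alox15 was not called (0.22 ± 0.13, limma adjusted p = 0.28). Icam2 rose by 1.01 ± 0.13 (adjusted p = 0.018) and is also an endothelial gene. Eosinophil markers summed to 16.2 to 17.6 CPM in Ctrl and 16.4 to 18.0 CPM in WC1, with Epx, the eosinophil peroxidase gene, and Ear6 at 0 in every library. Of the 5 eosinophil genes tested, Ear2 rose, and Ccr3 and Ear1 fell by 1.35 ± 0.22 and 0.60 ± 0.13 (limma adjusted p = 0.024 and 0.040). The calls of both lists were lost without Ctrl 1 or without Ctrl 2. That of Ear1 was also lost without WC1 2 and with the replicate block. Without WC1 1 there were 5 peritoneal markers called higher and 2 lower.

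Group 2 innate lymphoid and T helper 2 markers summed to 269 and 275 CPM in Ctrl and to 255 and 185 CPM in WC1. Of the 14 genes 8 were tested, with 0 called higher and Il1rl1 and Thy1 called lower by limma, edgeR and DESeq2 alike, and with 1 and 2 at an unadjusted p under 0.05. Both calls are counted in other lists too, Il1rl1 with the type 2 receptors and Thy1 with the stromal progenitor markers. Neutrophil markers summed to 30.5 to 36.8 CPM in Ctrl and 36.3 to 41.4 CPM in WC1, S100a8 was the only one of the 5 tested that was called (higher), and Ngp was at 0. The calls of Il1rl1, Thy1 and S100a8 were lost without Ctrl 1 or without Ctrl 2, and that of S100a8 also without the filter. Mesothelial markers, of which 10 were tested and none was called by any of the 3 tools, summed to 114 to 157 CPM in Ctrl and to 77.3 and 208 CPM in WC1 1 and WC1 2. None of them passed an unadjusted p under 0.05 either. Without WC1 1 there were 4 called higher, and without WC1 2 there were 4 called lower. Epididymis markers summed to 0.351 and 0.299 CPM in Ctrl 1 and Ctrl 2 and to 3.36 and 0.127 CPM in WC1 1 and WC1 2, the highest being WC1 1, with 8 of 11 genes at 0 in every library.

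Adipocyte and stromal markers differed as well. Of 15 adipocyte markers 11 were called higher and 0 lower (14 and 0 at an unadjusted p under 0.05, 12 and 0 by edgeR, 15 and 0 by DESeq2), and their summed level was 21183 to 22881 CPM in Ctrl and 33000 to 41400 CPM in WC1. Adipoq was measured at 630.1 and 784 CPM in Ctrl against 1398 and 1944 CPM in WC1, and rose by 1.23 ± 0.21 (limma adjusted p = 0.027). Of 15 stromal progenitor markers 0 were called higher and 6 lower (0 and 8 at an unadjusted p under 0.05, 0 and 6 by edgeR, 0 and 7 by DESeq2), with Pdgfra down by 0.59 ± 0.09 (adjusted p = 0.024). The calls of both lists were lost without Ctrl 1 or without Ctrl 2, and without the filter 2 adipocyte and 4 stromal markers were called. A larger share of adipocyte transcripts lowers the share left for all other cells in CPM, and how much of the lower Mrc1 and Clec10a it makes up was not tested. Retnla, Mgl2 and Chil3 went the other way from the macrophage and stromal lists. The contrast with macrophage genes was part of how the members were chosen, so it is no finding. The adipocyte, dendritic cell and peritoneal macrophage sums went the same way as these genes.

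**Figure D5:**
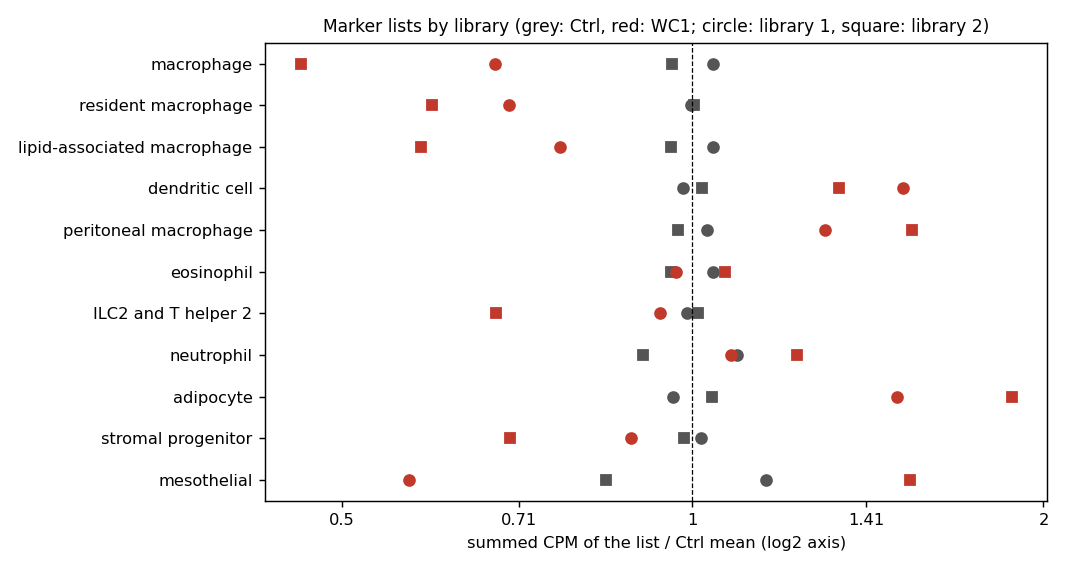
Summed CPM of each marker list divided by its Ctrl mean on a log2 axis, with Ctrl in grey, WC1 in red, circles for library 1 and squares for library 2 (ILC2, group 2 innate lymphoid cells). Both WC1 libraries lie below both Ctrl libraries for the macrophage, resident macrophage and lipid-associated macrophage lists, the ILC2 and T helper 2 list and the stromal list, and above them for the dendritic cell, peritoneal macrophage and adipocyte lists.

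The difference between the WC1 libraries ran through the set. WC1 2 was above WC1 1 for Retnla, Chil3 and Mgl2 and below it for Mrc1 and Clec10a, while WC1 2 also had the lower macrophage marker sum and the higher adipocyte and mesothelial sums. Leaving out either WC1 library kept the direction of every member. Over the 14 alternatives of processing and of left-out libraries, the log2 difference ranged from 3.28 to 4.27 for Retnla, 0.81 to 1.38 for Mgl2, -1.06 to -0.72 for Mrc1 and -0.51 to -0.27 for Clec10a, and over 13 of them from 0.17 to 0.96 for Chil3.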

How the data were processed

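Poly(A) RNA of epididymal adipose tissue was sequenced as directional libraries, and 4 libraries were analysed, grouped by their titles. The authors deposited 2 gene matrices. The first, called CPM, is a deposited signal proportional to reads: its columns summed to 97.6% to 105% of plain CPM, and 100% of its values were whole reads within 0.01 read. The second holds TPM, which the authors deposited corrected for transcript length. The submitters' processing notes name fastp, HISAT2, StringTie and mm10, with no versions or roles, and whether reads were counted by strand is not stated in any source used here. Recovered reads came to 71658062 and 90965297 in Ctrl and 61655738 and 61465029 in WC1, so that 3 reads corresponded to 0.0345 to 0.0492 CPM. Intervals cover counting error only.

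Genes that reached 0.5 CPM in 2 or more of the 4 libraries were tested by limma 3.58.1 (R 4.3.3; moderated variance with trend, two-sided) on log2(CPM + 1), with Benjamini-Hochberg adjustment over 14106 genes and a threshold of 0.05. An exact permutation test of 2 against 2 cannot go below p = 0.333. Alternatives were TPM, columns rescaled to equal sums, quantile normalization, pseudocounts of 0.25 and 4, no filter, a mean of at least 5 CPM, edgeR 4.0.16 (TMM) and DESeq2 1.42.0 on recovered reads, each library left out, and a replicate block. The limma script was tested on simulated data. The first step counted value columns without a sample, of which there were 0.

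The members and all gene lists were chosen with earlier results of these data known. The set holds 6 genes, of which 1 is not reported here, and some genes of the lists are counted but not reported by name. Named genes were the members, the genes of their families and Il4, Il13, Il33, Il4ra, Il13ra1, Il1rl1, Stat6, the 4 genes with the smallest p of each list, the first 3 genes of each marker list, and the 5 genes nearest to Retnla and 3 nearest to each other member, skipping predicted genes. Positions are from GENCODE M21 (GRCm38, the assembly of mm10). Promoter windows are from RefSeq, with an entry for 4 of 5 members. Transcripts and windows were aligned with Biopython 1.88.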

Additional observations from a re-analysis of the deposited data

How the results depend on the processing

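No member changed direction under any of the 14 alternatives that gave it a value (13 for Chil3, which falls under a mean of 5 CPM); Clec10a moved to -0.27 on TPM values. Of all tested genes, 1443 were called higher and 1088 lower as reported, 788 were called higher and 532 lower without the filter, 583 were called lower on TPM values and 1736 by DESeq2. Without the filter 1 receptor or signalling gene was called higher, 2 other alternative activation genes higher and 4 lower, 3 classical genes higher and 2 lower, and 1 arginine gene higher and 0 lower; with a mean of at least 5 CPM, 1 ligand and 1 classical gene were called lower. With a library left out, calls ranged from 2 to 2424 higher and 4 to 2748 lower over all genes, 0 to 0 and 0 to 3 for ligands, 0 to 7 and 0 to 6 for receptors and signalling, 0 to 7 and 0 to 14 for other alternative activation genes, 0 to 7 and 0 to 8 for classical genes and 0 to 3 and 0 to 4 for the arginine list. Leaving out Ctrl 1 or Ctrl 2 gave the fewest calls, and there WC1 is compared with a lone library assumed to vary like the others. Over the 4 left-out libraries the members ranged from 3.28 to 4.27 (Retnla), 0.17 to 0.96 (Chil3), -1.06 to -0.72 (Mrc1), -0.51 to -0.30 (Clec10a) and 0.81 to 1.38 (Mgl2).

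Of 120 other tested genes that the naming rule or the text took up, macrophage genes included, 79 were called. Many of them were picked for a small p or after their values were seen, so the choice itself raised their share called. Of all tested genes 10.2% were called higher and 7.71% lower. Over 1659 values of the 120 genes, 1371 kept direction and call, 218 lost the call (155 with a library left out), 46 gained it and 24 reversed. By edgeR the calls of Ccl4, Igf1, Il13ra2, Ptpn6, Flt3 and Adgrd1 were lost. The reversed values, all of genes not called, were Chid1 at 0.071 on TPM and 0.0085 rescaled, Lcn2 at 0.049 on TPM, Ly75 at -0.025 after quantile normalization, Upk3b at 0.072 by edgeR and 0.074 by DESeq2, and Stat6 at 0.13 on TPM, 0.062 rescaled, 0.057 after quantile normalization, 0.0054 by edgeR and 0.0055 by DESeq2. With a library left out, the sign also turned for Gata3 (-0.22 to 0.10), Lyve1 (-0.18 to 0.53), Msln (-0.53 to 0.88), Upk3b (-0.92 to 0.64), Krt19 (-0.039 to 1.15), Krt8 (-0.096 to 0.88), Lcn2 (-0.41 to 0.24), Ly75 (-0.054 to 0.14), Stat6 (-0.058 to 0.032) and Upk1b (-1.15 to 0.34). The cause was not tested.

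Equal replicate numbers do not pair the libraries by any label. Differences between library 1 and 2 correlated across 14106 genes with r = 0.19 between the groups, and with the replicate block 1769 genes were called higher and 1497 lower, among them 2 arginine genes lower.

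Few reads covered Il4, Il13, Chil4 and Retnlg, with at most 33 in any library. Depth limited Il4 and Il13, and Chil3 in WC1 1, whose counting interval met those of both Ctrl libraries. The intervals of Chil4 were apart, reaching up to 0.106 and 0.0424 CPM in Ctrl and starting from 0.200 and 0.361 CPM in WC1. For Retnlg the interval of Ctrl 1 was apart from those of WC1, and that of Ctrl 2 met them.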
